A study of Mus musculus with 55 samples.

Results

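The genes described here are 7 RNA-binding regulators of mRNA: Cpeb1, Cpeb2, Cpeb3 and Cpeb4 of the cytoplasmic polyadenylation element binding family, the Pumilio gene Pum2, and the Staufen genes Stau1 and Stau2. They are 7 of the 22800 gene symbols counted in patched pyramidal neurons from mouse prefrontal cortex. They were listed as proteins that act on local translation beside FMRP, the product of Fmr1. The list was also chosen by a measured value, the high level of Cpeb1 in knockout D1 cells, so that this level and the knockout difference of D1 cells are given below as a description. All 7 had reads in each of the 4 groups of cells and passed the filter on low values in each comparison.

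The cytosol of 1 neuron was drawn into a patch pipette and its RNA was made into 1 library. The labels name D1 and D2 cells, terms used for dopamine receptor types, but not how a cell was assigned to either kind. Cells without the knockout, called wild-type here, comprised 15 D1 cells from mice 28 to 34 days old and 26 D2 cells from mice 29 to 35 days old. Fmr1-/y cells, from hemizygous knockout mice that model fragile X syndrome, comprised 6 D1 cells aged 31 or 32 days (5 of them 32 days) and 7 D2 cells aged 32 days. A further knockout D1 cell failed the submitters' quality control and entered no comparison. A side label takes 1 value in D1 cells and another in D2 cells, so that side and cell kind cannot be told apart. No label gives the strain or names the animal of a cell, so that each group counts as 1 sample, no p-value was computed, and an SD describes only the spread between cells.

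CPEB proteins bind a U-rich element in the 3′ untranslated region of an mRNA. The founding member, the product of Cpeb1, can hold a message silent with a short poly(A) tail until a signal at the synapse leads to lengthening of the tail and translation. Pumilio proteins bind a UGUA-containing site and recruit deadenylases, which shorten the tail. Staufen proteins bind double-stranded stems in mRNA, and Stau2 carries messages along dendrites in transport granules, while Stau1 also takes part in the decay of messages. FMRP works on overlapping sets of neuronal mRNAs, mostly as a repressor.

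Several of the genes carry in their own 3′ untranslated regions the letters that CPEB or Pumilio proteins read, and examples are shown for that reason. They come from GENCODE vM21 on the GRCm38 build and are written 5′ to 3′ on the sense strand in DNA letters, with the motif in capitals.
Cpeb1 Pumilio-type match: gagcagctgcTGTATATAgttttaaatg
Cpeb1 CPEB-type match: tccttacaacTTTTATttgacgaatg
Cpeb2 Pumilio-type match: gttttcagtgTGTACATAaactaaaaat
Cpeb2 CPEB-type match: gaacccatgcTTTTATggacactagg
Cpeb3 Pumilio-type match: ccttttgtttTGTAAATAaatgtgcccc
Cpeb4 CPEB-type match: tataattagtTTTTATaatttcatca
Pum2 Pumilio-type match, upstream copy: tttatagagaTGTATATAgaattatagt
Pum2 Pumilio-type match, downstream copy: tgtacagaatTGTATATActtataattg

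The Cpeb1 matches lie at chr7:81347544-81347571 and chr7:81347334-81347359 on the minus strand. Those of Cpeb2 lie at chr5:43286404-43286431 and chr5:43289496-43289521 on the plus strand, and that of Cpeb3 at chr19:37022118-37022145 on the minus strand. The Cpeb4 match lies at chr11:31935172-31935197 on the plus strand. The Pum2 copies are at chr12:8750155-8750182 and chr12:8750408-8750435 on the plus strand. Motif searches used TTTTAT for the cytoplasmic polyadenylation element and TGTANATA for the Pumilio site, on the sense strand only, with overlapping matches counted. In the last 500 bases of the longest annotated 3′ untranslated region, TTTTAT was present in 5 of the 7 genes and in 39.6% of 14292 genes with a region of at least that length. Cpeb2 held 8 such matches in that window, Cpeb4 4, Cpeb3 2, and Cpeb1 and Stau2 1 each, whereas Pum2 and Stau1 held 0. TGTANATA was in that window in 0 of the 7 genes and in 13.5% of the 14292. Over the whole region it occurred 2 times in Pum2 and 1 time each in Cpeb1, Cpeb2 and Cpeb3. No share over all genes was computed for the whole region, and its length differs between genes, from 1315 bases in Cpeb1 to 3778 in Cpeb2 for instance. These are matches of letters, and binding was not measured.

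Depth and cell quality differed between the groups. Among the 54 cells used, totals ran from 260943 to 10673072 counts. A cell with a read in at least 4000 genes is called gene-rich here. Gene-rich cells made up 6 of 6 D1 and 6 of 7 D2 cells of the knockout, and 9 of 15 D1 and 13 of 26 D2 cells of the wild type. Among the 34 gene-rich cells a median of 4.5 of the 7 genes reached a level of 10 CPM, with a range of 1 to 7 (CPM are a cell's counts scaled to the same total in every cell), against a median of 1 (range 0 to 4) among the 20 cells with fewer genes. Differences are therefore also given for gene-rich cells alone. Fmr1, the deleted gene, had 0 reads in each knockout cell, which allows up to 3 counts in the summed libraries of a group, and had reads in 8 of 15 D1 and 13 of 26 D2 cells of the wild type. All 8 pyramidal neuron markers had reads in every group, with summed levels of 819 to 1790 CPM in knockout D1 cells and 128 to 3008 CPM in wild-type D1 cells. All 10 microglial markers likewise had reads in every group, with summed levels of 0.453 to 2173 CPM in knockout D1, 0.319 to 9837 CPM in wild-type D1, 29.9 to 3482 CPM in knockout D2 and 0 to 4695 CPM in wild-type D2 cells. Of 8 astrocyte markers, 6 were present in knockout D1 cells (286 to 1377 CPM, Gfap and Aldh1l1 at 0) and 8 in wild-type D1 cells (0 to 13004 CPM). The same markers gave 147 to 1486 CPM in knockout D2 cells (7 present, Aldh1l1 at 0) and 1.47 to 12119 CPM in wild-type D2 cells (8 present). Of 8 oligodendrocyte markers 4 were present in knockout D1 cells (0 to 2433 CPM, with Mog, Mag, Olig1 and Olig2 at 0) and 7 in wild-type D1 cells (0 to 13691 CPM, Olig2 at 0). In knockout D2 cells 7 of them gave 99.4 to 11094 CPM (Mog at 0) and in wild-type D2 cells 8 gave 0.999 to 11147 CPM. Of 8 interneuron markers, 3 had reads in knockout D1 cells (0 to 49.9 CPM, with Gad2, Slc32a1, Pvalb, Vip and Lhx6 at 0), against 7 in wild-type D1 (0 to 327 CPM, Slc32a1 at 0), 7 in wild-type D2 (0 to 832 CPM, Vip at 0) and 7 in knockout D2 cells (0.654 to 320 CPM, Vip at 0). Of 6 endothelial markers 1 to 4 had reads in a group, and they summed to at most 65.3 CPM in a cell, with Cdh5 at 0 in every group. The part of these markers in the results below was not tested.

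**Figure D1:**
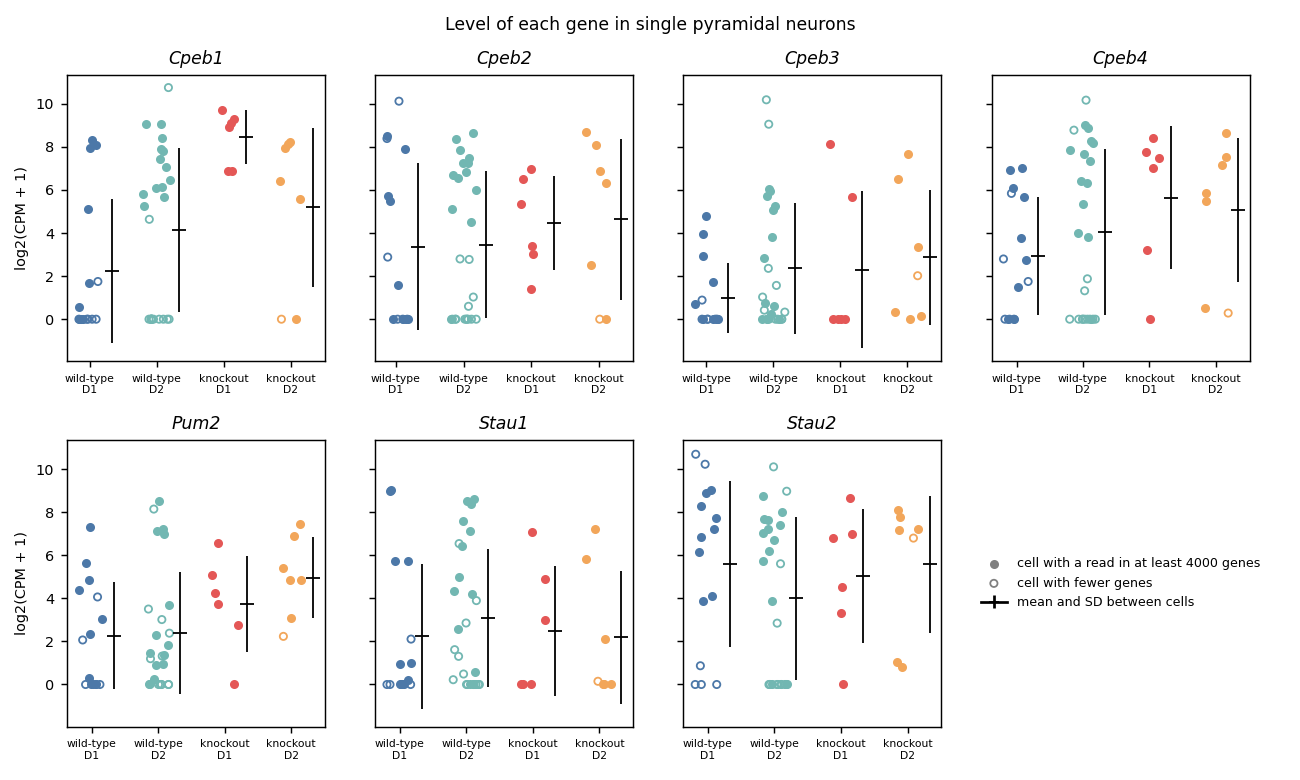
Level of each gene in every cell that passed quality control, as log2(CPM + 1), by group; filled points are gene-rich cells, open points cells with fewer genes, and the bars give the mean and the SD between cells. Cpeb1 was at 115 CPM or above in all 6 knockout D1 cells, and at 0 in some cells of each of the other 3 groups.

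Cpeb1 (ENSMUSG00000025586.17, chr7:81347026-81455465, minus strand), the founding member of the family and an activator or repressor of dendritic messages, was present in each knockout D1 cell. The 6 cells held 118, 479, 115, 834, 548 and 631 CPM. In wild-type D1 cells the level was 0 in 8 of 15, from 0.499 to 2.36 CPM in 3, and 33.8, 247, 275 and 318 CPM in the other 4. The lowest knockout D1 cell thus lay above 12 of the 15 wild-type D1 cells and below 3 of them, so that the groups overlapped, but 4 of the 6 knockout cells exceeded every wild-type D1 cell.

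In wild-type D2 cells Cpeb1 ran from 0 to 1725 CPM with a median of 43.3 CPM. The 11 cells at 0 and the highest cell all had fewer than 4000 genes with a read. Knockout D2 cells held 84.7, 46.4, 278, 301, 0, 0 and 247 CPM. The 4 groups therefore ranked from knockout D1 (mean log2(CPM + 1) 8.46 ± 1.25, SD, n = 6) through knockout D2 (5.19 ± 3.68, n = 7) and wild-type D2 (4.14 ± 3.82, n = 26) to wild-type D1 (2.23 ± 3.34, n = 15). Each step between neighbours in that order was smaller than the larger of the 2 SDs between cells.

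The difference in mean log2(CPM + 1) between knockout and wild-type D1 cells was 6.23 for Cpeb1, the fifth highest of 10792 measured genes, in the contrast that chose it. It was 4.93 in gene-rich cells and ran from 5.98 to 6.66 as each cell was left out. In the summed counts of the groups Cpeb1 stood at 507 CPM in knockout D1 (exact Poisson interval 499 to 515, counting error only) and 91.2 CPM in wild-type D1 cells (88.7 to 93.7), a ratio of 5.56. The wild-type D1 group divides into 11 cells at or near 0 and 4 higher ones, and 1 of the latter held 56.5% of its Cpeb1 counts, which the mean of log values and the summed counts weigh differently. Against the 3 wild-type D1 cells of 31 days it was 5.81.

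Cpeb1 also had the largest difference of the 7 between the wild-type kinds in means of log2(CPM + 1), but not in summed counts, where it was -0.71 and that of Cpeb3 was -3.45. Among gene-rich cells it reached 10 CPM in 13 of 13 wild-type D2 cells (100%) and in 4 of 9 wild-type D1 cells (44.4%), and the remaining 5 of these D1 cells held less. The D1 minus D2 difference was -1.90 over all wild-type cells and -3.56 in gene-rich ones. In knockout cells the D1 minus D2 difference was 3.28, and 2.41 in gene-rich cells, so that the order of the kinds was the opposite. These values contain the knockout D1 level that chose Cpeb1, so the opposite order is a description only. The knockout difference in D1 cells exceeded that in D2 cells by 5.18 (5.97 in gene-rich cells), at percentile 99.4 of 11364 measured genes whose median was 0.38. This difference of differences contains the contrast that chose Cpeb1, and it was not tested. In D2 cells alone the knockout difference was 1.05 over all cells and -1.04 in gene-rich cells. As each cell was left out it ran from 0.54 (without knockout D2 cell 4) to 1.92 (without knockout D2 cell 5).

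The number of cells with a Cpeb1 read was also counted at equal depth. When each cell was thinned to 260943 reads, the lowest total, Cpeb1 had a read in 6 of 6 knockout D1, 5 of 7 knockout D2, 15 of 26 wild-type D2 and 5 of 15 wild-type D1 cells. Without thinning the numbers of cells were 6, 5, 15 and 7 in the same order, so that the wild-type D1 group lost 2 cells and the others none.

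Cpeb2 (ENSMUSG00000039782.14, chr5:43233170-43289724, plus strand), a CPEB paralog with the most TTTTAT matches of the 7, varied widely in every group. Knockout D1 cells held 9.53, 7.28, 90.4, 126, 40.1 and 1.66 CPM, and knockout D2 cells 119, 0, 271, 407, 0, 4.67 and 79.2 CPM. Wild-type D1 cells ran from 0 to 1113 CPM with a median of 2 CPM, and wild-type D2 cells from 0 to 403 CPM with a median of 5.89 CPM. All 6 knockout D1 cells had a read, but the group overlapped with each of the others, and 6 wild-type D2 cells stood above its highest cell. The 4 group means lay between 3.37 and 4.64 on the log2(CPM + 1) scale, within 1 SD of each other.

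The Cpeb2 difference in D1 cells was 1.08, near the median of all measured genes, which was 0.98. It was 1.21 in gene-rich cells, and ran from 0.57 without knockout D1 cell 4 to 1.69 without knockout D1 cell 6. Summed counts gave the opposite order, with 43.7 CPM in knockout D1 and 93.7 CPM in wild-type D1 cells. Between the wild-type kinds the difference was -0.08 over all cells and -3.11 in gene-rich cells, where 12 of 13 D2 cells and 4 of 9 D1 cells reached 10 CPM. The highest wild-type D1 cell was not gene-rich. In D2 cells the knockout difference was 1.19, and -0.94 in gene-rich cells. It ran from 0.51 without knockout D2 cell 4 to 1.96 without knockout D2 cell 2. Cpeb2 shares 137 of its 7816 exon bases with the antisense gene Gm7854, and the strand setting of the counting is unknown here.

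Cpeb3 (ENSMUSG00000039652.16, chr19:37021291-37208601, minus strand), which represses messages of AMPA receptor subunits, was the least abundant gene of the family by summed counts in the 54 cells, at 5.55 CPM per kilobase of exon. Knockout D1 cells held 0, 0, 50.8, 278, 0 and 0 CPM, and knockout D2 cells 9.28, 0.103, 90.5, 206, 3.05, 0.26 and 0 CPM. Wild-type D1 cells ran from 0 to 27.1 CPM with a median of 0, and wild-type D2 cells from 0 to 1164 CPM with a median of 0.61 CPM. Few cells in any group reached 10 CPM (2 of 6 knockout D1, 2 of 7 knockout D2, 8 of 26 wild-type D2 and 2 of 15 wild-type D1 cells), and the groups overlapped. The difference in D1 cells was 1.30, and 0.73 in gene-rich cells, and without knockout D1 cell 4 it was 0.14. Wild-type D1 cells were lower than D2 cells by 1.35 on the log2 scale (-1.35; -1.22 in gene-rich cells), and in summed counts at 5.08 against 65.4 CPM. Wild-type D2 cell 20, which held 50.6% of the group's Cpeb3 counts, had fewer than 4000 genes, as had cell 23, the one with the highest CPM. For D2 cells the knockout difference was 0.51, or 0.22 when restricted to gene-rich cells. Cpeb3 shares 116 of 7414 exon bases with the antisense gene A330032B11Rik.

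Cpeb4 (ENSMUSG00000020300.14, chr11:31872211-31935634, plus strand), a regulator of many neuronal poly(A) tails, had the next largest knockout difference among the D1 cells after Cpeb1. Knockout D1 cells held 0, 177, 129, 335, 8.16 and 217 CPM, and knockout D2 cells 143, 0.413, 397, 183, 0.218, 43.9 and 57.1 CPM. Wild-type D1 cells ran from 0 to 129 CPM with a median of 5.74 CPM, and wild-type D2 cells from 0 to 1151 CPM with a median of 14 CPM. Of the 6 knockout D1 cells, 3 stood above every wild-type D1 cell, 1 was level with the highest of them and 2 were low, with 1 of these at 0. The difference was 2.70, and 1.90 in gene-rich cells, at percentile 84.3 of all measured genes. It ran from 2.15 to 3.83 as each cell was left out, the highest value being that without knockout D1 cell 1. Summed counts gave 156 CPM in knockout D1 and 40.1 CPM in wild-type D1 cells. Wild-type D1 cells were again below wild-type D2 cells, at -1.11 over all cells and -2.65 in gene-rich cells, but the value was 0.14 without the cells of 29 days and -0.86 without wild-type D2 cell 23. The knockout difference in D2 cells was 1.02, and -0.53 in gene-rich cells, with a range from 0.42 (without knockout D2 cell 3) to 1.81 (without knockout D2 cell 5).

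Pum2 (ENSMUSG00000020594.14, chr12:8674134-8752581, plus strand), a Pumilio repressor that also restrains dendrite growth, was the gene of the 7 with the largest knockout difference in D2 cells. Knockout D2 cells held 42, 118, 7.46, 173, 3.71, 27.5 and 27.5 CPM. Wild-type D2 cells ran from 0 to 366 CPM with a median of 1.54 CPM, and 8 of 26 were at 0. Every knockout D2 cell lay above the wild-type median, and 5 wild-type D2 cells at 128 CPM or more overlapped with the top of the knockout range. The difference was 2.57, at percentile 94.1 of the measured genes, and 2.14 in gene-rich cells at percentile 96.8. In summed counts the groups stood at 53.2 and 52.4 CPM, a ratio of 1.02. A single cell held 50.8% of the knockout D2 counts, and another held 45.7% of the wild-type D2 counts. Over all cells a larger share of knockout D2 cells carried Pum2 (7 of 7 with a read, 5 of 7 at 10 CPM) than of wild-type D2 cells (18 of 26 and 7 of 26), at a similar summed level. Among gene-rich cells the shares with a read were close, at 6 of 6 and 12 of 13. There 5 of 6 knockout and 5 of 13 wild-type D2 cells reached 10 CPM.

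In D1 cells Pum2 stood at 18, 33, 0, 5.79, 93 and 12.4 CPM in the knockout, and from 0 to 160 CPM with a median of 3.19 CPM in the wild type. The groups overlapped over the whole knockout range, the difference was 1.47, and it was 0.63 in gene-rich cells. It ran from 0.90 without knockout D1 cell 5 to 2.21 without knockout D1 cell 3. Fxr1 and Fxr2, the paralogs of Fmr1, gave knockout differences of 0.99 and 0.68 in D1 and of 0.34 and 2.39 in D2 cells, and with gene-rich cells alone the signs turned, to -0.35 and -1.32 in D1 and -0.49 and -0.30 in D2 cells.

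Stau1 (ENSMUSG00000039536.16, chr2:166947549-166996299, minus strand), the Staufen of the decay pathway, was at or near 0 in many cells of each group. Knockout D1 cells held 133, 0, 6.86, 0, 29.2 and 0 CPM, and knockout D2 cells 0, 148, 3.37, 55.2, 0.109, 0 and 0 CPM. Wild-type D1 cells ran from 0 to 524 CPM with a median of 0.142 CPM, and wild-type D2 cells from 0 to 391 CPM with a median of 3.54 CPM. The highest knockout cell lay below the 2 highest wild-type D1 and the 4 highest wild-type D2 cells, but all groups held cells at 0 and overlapped. The difference was 0.25 in D1 cells and -0.90 in D2 cells, and in gene-rich cells -1.02 and -2.35. Summed counts gave 19 CPM in knockout D1 against 142 CPM in wild-type D1 cells, of which a single cell held 65.5%, and 38.2 against 89.6 CPM in D2 cells. The sign in D1 cells changed without knockout cell 1, to -0.67, whereas against the 3 wild-type D1 cells of 31 days the difference was 2.43.

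Stau2 (ENSMUSG00000025920.19, chr1:16228674-16520112, minus strand), the Staufen enriched in brain, was the only one of the 7 genes that was higher in wild-type D1 than in wild-type D2 cells by at least 1 log2 unit. Wild-type D1 cells ran from 0 to 1650 CPM with a median of 115 CPM, and wild-type D2 cells from 0 to 1100 CPM with a median of 30.7 CPM. Reads were present in 12 of 15 D1 cells (80.0%, exact interval 51.9 to 95.7%) and 15 of 26 D2 cells (57.7%, 36.9 to 76.6%), and the groups overlapped over nearly the whole range. The difference was 1.60, at percentile 97.3 of the measured genes, and 1.04 in gene-rich cells. The highest 2 wild-type D1 cells had fewer than 4000 genes. Summed counts stood at 199 and 177 CPM, closer together than the means.

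Knockout D1 cells held 0, 110, 22.1, 127, 9.07 and 401 CPM of Stau2, and knockout D2 cells 144, 148, 278, 220, 110, 0.779 and 1.08 CPM. Knockout D2 cells divided into 5 at 110 CPM or more and 2 near 1 CPM. The difference was -0.55 in D1 cells and 1.58 in D2 cells, but in gene-rich cells it was -1.86 and -0.50, so that the D2 value changed sign. The D1 value ran from -1.27 to 0.47 as each cell was left out, the sign changing without knockout D1 cell 1. For the 2 Staufens together, 6 of 6 knockout D1 cells had exactly 1 of them at 10 CPM or more and 0 of 6 had both. This count depends on the level set, as knockout D1 cell 5 held Stau2 at 9.07 CPM, just below it. With each cell thinned to the lowest total, Stau2 reached 10 CPM in 5 of 6 and Stau1 in 2 of 6 knockout D1 cells. Among gene-rich cells both were at that level in 8 of 13 wild-type D2, 4 of 9 wild-type D1 and 2 of 6 knockout D2 cells.

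**Figure D2:**
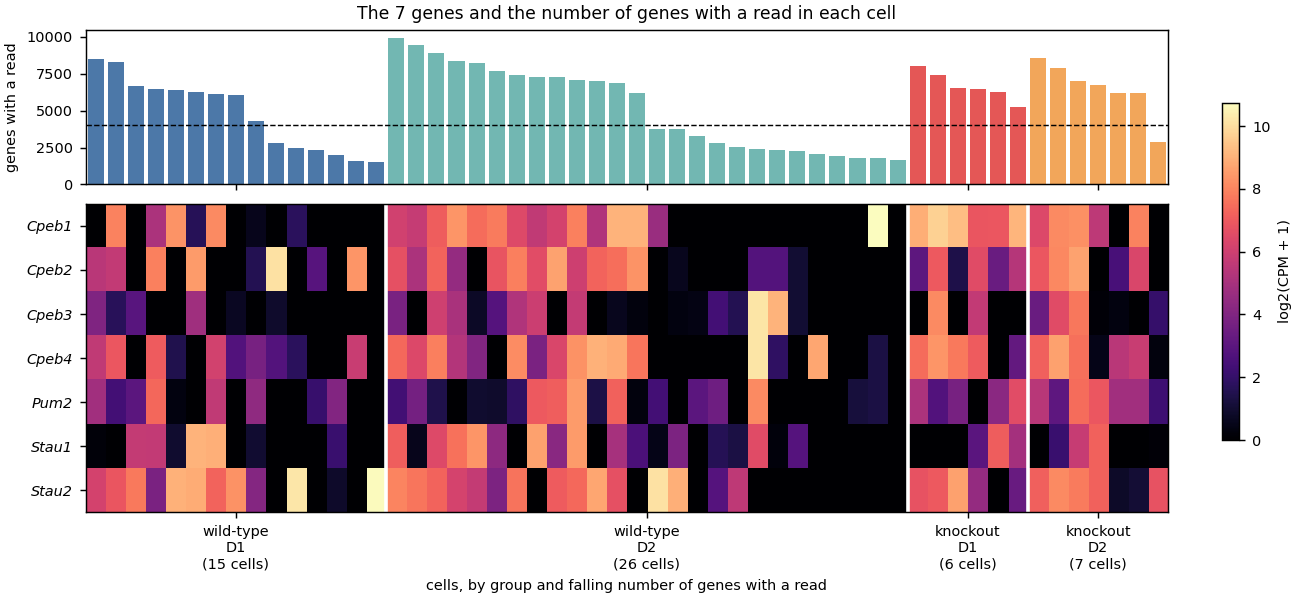
Top, number of genes with a read in each of the 54 cells, with a dashed line at 4000. Bottom, log2(CPM + 1) of the 7 genes in the same cells, ordered within each group by falling number of genes; the gene-poor wild-type cells at the right of each block were mostly at 0, and Cpeb1 was continuous across the gene-rich wild-type D2 and the knockout D1 blocks.

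The members were set against all measured genes, those averaging 1 CPM or more with reads in 10% or more of the cells in a comparison. Between wild-type D1 and D2 cells 9.21% of 11059 measured genes were higher in D1 by at least 1 log2 unit and 13.2% were lower, against 1 (Stau2) and 3 (Cpeb1, Cpeb3 and Cpeb4) of the 7. In gene-rich cells these shares were 11.1% and 33.4%, and 1 and 5 of the 7. The median difference was -0.84 over the 7 and -0.14 over all measured genes (-1.36 and -0.48 in gene-rich cells). In gene-rich cells the 4 CPEB genes and Stau1 were the 5 on the lower side, and Stau2 lay on the other.

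Between knockout and wild-type D1 cells 49.6% of measured genes were higher by at least 1 log2 unit and 8.02% lower, against 5 and 0 of the 7. This contrast helped to choose the list. In gene-rich cells the shares were 28.5% and 22.7%, against 3 (Cpeb1, Cpeb2 and Cpeb4) and 2 (Stau1 and Stau2) of the 7. The median over the 7 was 1.30 beside 0.98 over all genes, and 0.73 beside 0.14 in gene-rich cells. Over all cells the values of the knockout D1 group thus lay higher across measured genes in general (median 0.98), and nothing is read from the members' count.

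Between knockout and wild-type D2 cells 36.4% of 11222 measured genes were higher by at least 1 log2 unit and 6.91% were lower, against 5 and 0 of the 7. In gene-rich cells the shares were 14.2% and 30%, against 1 (Pum2) and 2 (Cpeb1 and Stau1) of the 7. Only Pum2 kept a difference above 1 log2 unit in both sets of cells. Between knockout D1 and knockout D2 cells 32.9% of genes were higher and 21% lower, against 1 (Cpeb1) and 1 (Pum2) of the 7. The knockout D1 level of Cpeb1, which helped to choose the list, enters this comparison. Pum2 differed by -1.23 there, or -0.48 without knockout D1 cell 3, and the other 5 genes lay between -0.56 and 0.58. The same counts were found in gene-rich cells, where the shares over all genes were 27.5% and 26.2%. The comparisons share groups, so their values for a gene are not independent of each other.

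**Figure D3:**
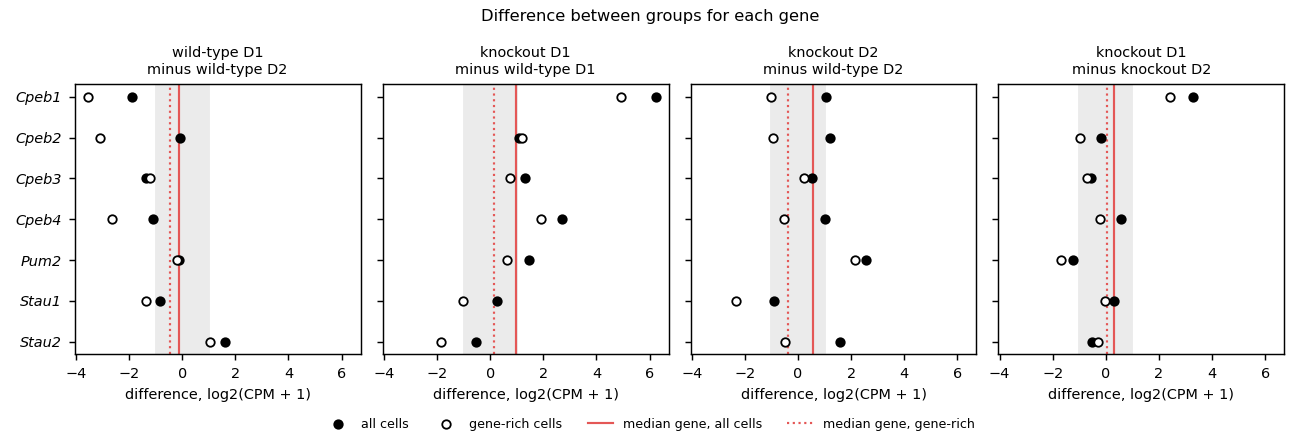
Difference of mean log2(CPM + 1) for each gene in the 4 comparisons, for all cells (filled) and gene-rich cells (open); red lines mark the median of all measured genes, solid for all and dotted for gene-rich cells, and the grey band spans -1 to 1. Cpeb1 lies at 6.23 and 4.93 in the D1 knockout comparison, far to the right of both medians.

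Levels may be compared between the genes only per length. Per kilobase of exon, the summed level of Cpeb1 in knockout D1 cells was 121 CPM, followed by Cpeb4 (24.5 CPM), Stau2 (22.4 CPM), Cpeb3 (7.01 CPM), Cpeb2 (5.59 CPM), Pum2 (4 CPM) and Stau1 (3.14 CPM). In wild-type D2 cells the same quantity was 35.7 CPM for Cpeb1, 27.1 CPM for Cpeb4, 26.3 CPM for Stau2, 14.8 CPM for Stau1, 12.9 CPM for Cpeb2, 8.83 CPM for Cpeb3 and 7.21 CPM for Pum2. Cpeb1 led both orders, by a wider margin in the knockout D1 group, where its level helped to choose the list. In that group a single cell held 85.9% of the Cpeb3 counts and another held 74.5% of the Stau2 counts. The top Cpeb1 cell held 34.8% of the Cpeb1 counts there. In wild-type D1 cells Stau2 led at 29.5 CPM per kilobase, with Stau1 at 23.5 CPM and Cpeb1 at 21.7 CPM. A single cell held 65.5% of these Stau1 counts. By the mean CPM of cells per kilobase the order there was Stau2 (46.7 CPM), Cpeb2 (18.3 CPM), Cpeb1 (14 CPM) and Stau1 (12.4 CPM).

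**Figure D4:**
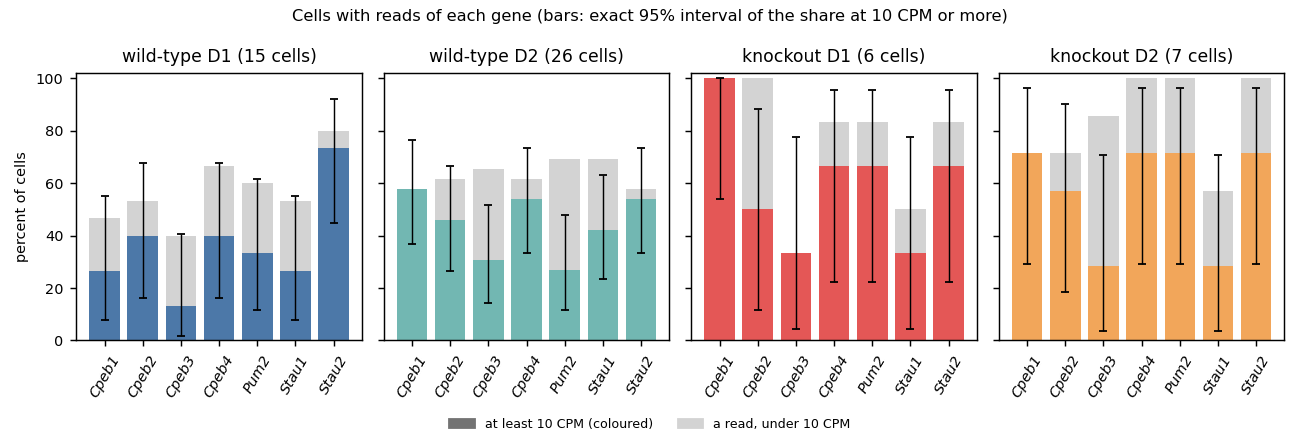
Percent of cells in each group with a gene at 10 CPM or more (coloured bars) and with a read below that level (grey). Error bars give the exact 95% interval of the coloured share, which covers counting of cells only; Cpeb1 reached the level in 100% of knockout D1 and 26.7% of wild-type D1 cells.

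Across the 34 gene-rich cells some pairs of CPEB genes varied together more than others. Spearman's rho was 0.52 for Cpeb2 with Cpeb4, 0.40 for Cpeb1 with Cpeb4 and 0.39 for Cpeb2 with Cpeb3. It was 0.26 for Cpeb3 with Cpeb4, 0.12 for Cpeb1 with Cpeb2 and 0.02 for Cpeb1 with Cpeb3. All 12 gene-rich cells with Cpeb3 at 10 CPM or more also had Cpeb2 at that level. Stau1 and Stau2 gave -0.06. These cells share depth and the number of genes detected, and the values are descriptions over cells of 4 groups.

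The genes whose levels followed each member most closely over all 54 cells, among 7384 genes with a read in at least 18 of them, were ranked by Spearman's rho. For Cpeb1 they were Celf5 (0.78), an RNA-binding protein, and Grm7 (0.75), a metabotropic glutamate receptor, and in gene-rich cells these values were 0.57 and 0.34. For Cpeb2 they were Csmd1 (0.72), a membrane protein that regulates complement, and Celf1 (0.69), an RNA-binding protein. For Cpeb3 they were Kif17 (0.57) and Klc2 (0.57), which belong to kinesin motors, and for Cpeb4 Ccar1 (0.73) and the collagen chain Col4a2 (0.73). For Pum2 Eri3 is named (0.62). For Stau1 they were Ptpdc1 (0.60) and Ythdc1 (0.58), a reader of methylated RNA, and for Stau2 the kinase Nim1k (0.67) and the small GTPase Cdc42 (0.66). In gene-rich cells the values of the genes named here after those of Cpeb1 ran from 0.37 (Ythdc1) to 0.64 (Csmd1). Each was lower than over all cells, except that of Kif17 (0.59). The members themselves gave a rho of 0.36 to 0.57 with the number of genes detected in a cell, a quantity that all genes share.

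The partners of these proteins were followed as 3 lists, chosen with earlier results of the data known. The list of cytoplasmic polyadenylation and deadenylation factors holds the poly(A) polymerases, the cleavage factors that CPEB recruits, the CCR4-NOT deadenylase and translational repressors. Of 37 measured, 23 were higher and 1 lower by at least 1 log2 unit in knockout than wild-type D1 cells (median 1.48, beside 0.98 over all genes, of which 49.6% were higher and 8.02% lower), and in gene-rich cells 18 were higher and 7 lower (median 0.96, beside 0.14, with 28.5% and 22.7% of all genes). Cpsf4, a subunit of the cleavage and polyadenylation factor, differed by 4.19 (2.96 in gene-rich cells) and was at 145 ± 108 CPM (SD, n = 6) against 37.3 ± 76.4 CPM (n = 15). Cnot11, a subunit of the deadenylase, differed by 3.83 (3.26 in gene-rich cells), with reads in 5 of 6 and 3 of 15 cells. The same 2 genes led between knockout D1 and D2 cells, at 3.82 for Cpsf4 and 3.85 for Cnot11 (3.45 and 3.71 in gene-rich cells). There 11 of 38 were higher and 6 lower, beside 32.9% and 21% of all genes, and in gene-rich cells 9 and 10, beside 27.5% and 26.2%.

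In D2 cells 18 of 37 of these factors were higher and 2 lower in the knockout (median 0.73, beside 0.56), with 36.4% and 6.91% of all genes, but in gene-rich cells 5 of 38 were higher and 10 lower, with 14.2% and 30% of all genes. Cnot2, a scaffold of the deadenylase, differed by 2.57 (1.14 in gene-rich cells). Between the wild-type kinds 1 of 37 was higher and 8 lower in D1 cells, beside 9.21% and 13.2% of all genes. The largest differences were those of Btg2 (-2.06), which promotes deadenylation, and Cpsf3 (-1.47), the endonuclease of the cleavage factor. In gene-rich cells 3 were higher and 18 lower, beside 11.1% and 33.4% of all genes, and these genes stood at -3.16 and -2.97.

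Among neuronal RNA granule and transport proteins 16 of 32 measured were higher and 0 lower in knockout D1 cells (median 1.25), beside 49.6% and 8.02% of all genes, a share close to that of the list. In gene-rich cells 6 were higher and 8 lower (median -0.27), beside 28.5% and 22.7%. Kif5c, a kinesin heavy chain that moves granules, differed by 3.79 (2.16 in gene-rich cells) and stood at 289 ± 60.4 CPM (SD, n = 6) against 135 ± 218 CPM (n = 15). Casc3, a component of the exon junction complex that binds Staufen-containing granules, differed by 3.74 (2.31 in gene-rich cells). Between knockout D1 and D2 cells it differed by 3.94 (3.56 in gene-rich cells) and Rbm3, a cold-inducible RNA-binding protein, by 3.23 (2.80). In that last comparison 7 of 31 were higher and 9 lower, beside 32.9% and 21% of all genes. In D2 cells 18 of 31 were higher and 1 lower in the knockout (6 and 6 in gene-rich cells), beside 36.4% and 6.91% of all genes (14.2% and 30% in gene-rich cells). The RNA helicases Ddx3x (4.16, and 2.78 in gene-rich cells) and Ddx1 (2.89, but 0.28 in gene-rich cells) were at the top. Between the wild-type kinds 6 of 31 were higher and 2 lower in D1 cells, beside 9.21% and 13.2% of all genes. Among them were Tia1, a stress granule protein (1.57, but -0.09 in gene-rich cells), and Ddx1 (-1.69, and -2.56). In gene-rich cells the counts were 4 and 5, beside 11.1% and 33.4%.

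The list of 20 mRNAs known as targets of CPEB, Pumilio or Staufen proteins in neurons gave 17 higher and 0 lower in knockout than in wild-type D1 cells (median 2.27, beside 0.98 over all genes, of which 49.6% were higher and 8.02% lower). In gene-rich cells 10 were higher and 0 lower (median 1.00, beside 0.14, with 28.5% and 22.7% of all genes). Arc, an activity-dependent cytoskeletal protein whose message travels to dendrites, stood at 1212 ± 1123 CPM (SD, n = 6) against 422 ± 627 CPM (n = 15), a difference of 4.63 (2.51 in gene-rich cells). Gria2, an AMPA receptor subunit, stood at 2159 ± 984 CPM against 1013 ± 1153 CPM, a difference of 3.77 (2.10 in gene-rich cells). In knockout D2 cells, by contrast, Arc was at 38.4 ± 89.1 CPM (n = 7) against 337 ± 467 CPM in wild-type D2 cells (n = 26), a difference of -2.61 (-5.33 in gene-rich cells). Gria1, another AMPA receptor subunit, differed by 2.13 over all D2 cells but by -1.30 in gene-rich ones. Of the 20, 9 were higher and 2 lower there, beside 36.4% and 6.91% of all genes, and 1 and 4 in gene-rich cells, beside 14.2% and 30%. Between knockout D1 and D2 cells 8 were higher and 1 lower, beside 32.9% and 21% of all genes, led by Arc (7.48, and 7.10 in gene-rich cells) and Map2, a dendritic microtubule protein (2.46, and 1.57). Between the wild-type kinds 0 were higher and 6 lower in D1 cells (1 and 7 in gene-rich cells), beside 9.21% and 13.2% of all genes (11.1% and 33.4%). Grin1, the common NMDA receptor subunit, stood at -1.85 (-3.51 in gene-rich cells) and the elongation factor Eef2 at -1.46 (-0.75). TTTTAT was found in the last 500 bases of the 3′ untranslated region of 9 of the 19 listed mRNAs with a region of that length (47.4%), close to the 39.6% of all genes.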

How the data were processed

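The authors deposited whole-number read counts per gene symbol (22800 symbols) and per Ensembl identifier (22880), and a normalized signal table of 14067 symbols, found to be the counts of each cell times 1 factor per cell (0.373 to 51.5); it holds all 7 genes. Trimmomatic, STAR and featureCounts were used on GRCm38, per the submitters' processing notes; versions, strand setting and treatment of reads that map to several places were not given in the sources used here. Libraries were made with Nextera XT from the cytosol of 1 cell each, per the labels' protocols, and no doublet caller was run. Each table held 2 columns that match no sample label, which were not used.

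CPM were computed from the counts with each cell's total over genes. Differences are between means over cells of log2(CPM + 1), cells weighted equally, which understates those of low genes. Measured genes averaged 1 CPM or more with reads in 10% or more of the cells in a comparison. Shares carry exact Clopper-Pearson and summed counts exact Poisson intervals at 95%, for counting error only; reads without molecular identifiers are not independent molecules. Named genes are the 7, Fmr1, Fxr1 and Fxr2, the 2 most correlated genes per member, and per list and comparison the 2 largest differences among genes with a mean of at least 10 CPM in 1 group and a read in 33.3% or more of its cells; some genes that this rule names are not reported here. Members and lists were chosen with earlier results of these data known. Alternatives were other pseudocounts (10 and 0.1 CPM), totals without mitochondrial genes and Rn18s-rs5, TMM totals, the normalized table, Ensembl counts, gene-rich cells, summed counts, no filter, ages and left-out knockout cells. Thinning and leaving out each wild-type cell were added after the data were seen. Positions and 3′ ends come from GENCODE vM21. Python 3.11.15 with numpy 2.4.6, pandas 2.3.3, scipy 1.17.1 and matplotlib 3.10.9, and edgeR 4.0.16 in R 4.3.3 (TMM factors only) were used. The computation of differences was tested on simulated data.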

Additional observations from a re-analysis of the deposited data

Results flagged for a closer look

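The knockout D1 cell that failed the submitters' quality control, outside every comparison, held a high level of Stau2. It had 2379 Stau2 reads of 950010 in total, or 2504 CPM, above the 1650 CPM of the highest wild-type D1 cell. The same cell had a read in 995 genes, and Rn18s-rs5 took 59.5% of its counts. Of the other 6 genes Pum2 had 16 reads (16.8 CPM) and the rest had 0. In the 14 sets formed by a gene and a knockout group, 0 had a cell standing far from the others by Dixon's criterion. Chance alone meets that criterion in about 1 of 20 sets of normally distributed values. Several of these sets held repeated values of 0, Cpeb3 in knockout D1 cells for instance. That rate therefore need not hold here, and nothing is read from the count.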

How the results depend on the processing

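No paired analysis was possible because the replicate numbers were given in accession order and pair no cells. The cause of the changes below was not tested. Counts of members higher or lower by at least 1 log2 unit changed as follows. With a pseudocount of 10 CPM the wild-type comparison gave 1 lower (3 in the report), knockout D1 2 higher (5), knockout D2 1 higher (5) and knockout D1 minus D2 0 lower (1). With 0.1 CPM, knockout D2 gave 1 lower (0) and knockout D1 minus D2 2 lower, and the authors' normalized table gave the same values. In gene-rich cells the wild-type comparison gave 5 lower, knockout D1 3 higher and 2 lower, and knockout D2 1 higher and 2 lower. Summed counts gave 0 higher and 2 lower between wild-type kinds (Cpeb1 at -0.71), 3 higher and 2 lower in knockout D1, 0 higher and 3 lower in knockout D2, and 2 higher and 0 lower for knockout D1 minus D2. Without cells of 30 days the wild-type comparison gave 5 lower, and without those of 31 days 0 higher. With wild-type cells of 31 and 32 days, knockout D1 gave 1 lower and knockout D2 1 lower. As each cell was left out, the counts ran from 3 to 5 higher and 0 to 1 lower in knockout D1, 2 to 5 higher and 0 to 1 lower in knockout D2, 1 to 2 higher and 0 to 3 lower for knockout D1 minus D2, and 1 higher and 2 to 4 lower in the wild-type comparison.

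Values past 1 log2 unit in the report that changed sign, left-out cells aside, were Cpeb4 between wild-type kinds without cells of 29 days (0.14); in knockout D1 with summed counts, Cpeb2 (-1.08) and Pum2 (-0.034); in knockout D2 in gene-rich cells, Cpeb1 (-1.04), Cpeb2 (-0.94), Cpeb4 (-0.53) and Stau2 (-0.50), and with summed counts Cpeb1 (-0.78), Cpeb2 (-0.38), Cpeb4 (-1.05) and Stau2 (-0.55). Smaller values changed sign too, among them Stau1 in knockout D1 (-2.84 with summed counts, -1.02 in gene-rich cells), Cpeb3 in knockout D2 (-1.34 with summed counts) and Cpeb2 and Pum2 between wild-type kinds (0.79 and 0.74 without cells of 29 days). Against the 3 wild-type D1 cells of 31 days, Stau1 in knockout D1 instead rose to 2.43 (0.25 in the report), and Stau2 stood at -2.86 (-0.55 in the report). Cpeb1 in knockout D1 cells kept its sign and stayed above 1 in 31 of 31 alternatives, from 2.46 (summed counts) to 8.15 (pseudocount of 0.1 CPM). That contrast chose Cpeb1, and most of these alternatives left out 1 cell of the same data, so the count is a description only. Pum2 between knockout kinds was -0.48 without D1 cell 3. Over all genes, the 5349 higher in knockout D1 became 3251 in gene-rich cells and 2709 in summed counts, the 4087 higher in knockout D2 became 1722 and 1698, and the 1461 lower in wild-type D1 became 3918 and 2578. TMM totals moved the median of all genes between knockout kinds from 0.29 to 0.18; the members' calls there stayed at 1 higher and 1 lower. Levels under about 10 CPM rest on few reads in the shallowest cells.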
